A study of Mus musculus with 8 samples.

Results

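The 10 genes described here, Alox15, Alox5, Alox5ap, Ltc4s, Lta4h, Ptgs1, Ptgs2, Ptges, Ptgis and Tbxas1, encode proteins that make eicosanoids, the signalling lipids derived from arachidonic acid. They were chosen as a named list of eicosanoid enzymes, with earlier results of these data known. Their probes were found through the transcript accession of each probe. All 10 were on the array, out of 21154 genes named there. Ptges had 2 probes and each of the other 9 genes had 1. All 11 probes were well above background on all 8 arrays, so all 10 genes passed the filter on dim probes.

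RNA of mouse peritoneal macrophages was measured on 8 single-colour Agilent arrays, 2 per group. The Fra-1 knockout group (Fra-1lox/lox MxCre-/+) was set beside its Fra-1 control group (wild-type Fra-1lox/lox), and the Fra-2 knockout group (Fra-2lox/lox LysMCre-/+) beside its Fra-2 control group (wild-type Fra-2lox/lox). Fosl1 and Fosl2 encode Fra-1 and Fra-2, DNA-binding partners of Jun proteins in AP-1. All mice were 8 weeks old, of either sex, on a 129/C57Bl6 background, with littermates as controls. The floxed allele was therefore shared by knockouts and controls of a line. The Mx promoter that drives Cre in the Fra-1 line is switched on by interferon in many cell types, and the LysM promoter of the Fra-2 line is active in myeloid cells. Lavaged cells were plated overnight and only those that adhered were used. Both Fra-1 groups were labelled thioglycollate elicited and neither Fra-2 group was, so the line, the eliciting agent and the preparation cannot be told apart. Nothing in the labels says whether the 2 arrays of a group came from separate mice. The spread within groups that p-values rest on may therefore not be that between mice. Values below are log2 signals relative to the 75th percentile of the same array.

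Eicosanoid synthesis starts when a phospholipase frees arachidonic acid from membranes. Lipoxygenases oxidise it along one branch. 5-Lipoxygenase (Alox5), helped by its activating protein (Alox5ap), makes leukotriene A4, which Lta4h turns into leukotriene B4 and Ltc4s into leukotriene C4. Alox15 oxidises arachidonic acid at other carbons and is known as a gene of resident peritoneal macrophages in the mouse. Along the other branch the cyclooxygenases Ptgs1 and Ptgs2 make prostaglandin H2, from which Ptges makes prostaglandin E2, Ptgis prostacyclin and Tbxas1 thromboxane A2. Macrophages make lipids of both branches.

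Promoter windows of RefSeq (build GRCm38.p6, 250 bases before to 50 after the start site) were found for 7 of the 10 genes, Alox5, Ltc4s, Lta4h, Ptgs1, Ptgs2, Ptges and Tbxas1. Since Fra-1 and Fra-2 are AP-1 proteins, 2 motifs were searched on both strands, the AP-1 site TGANTCA and the core TGACGT of the cyclic AMP response element. The 2 motifs share their first 3 letters but cannot both start at the same base of a strand. The AP-1 site was in 7.81% and the core in 7.51% of all 32851 windows of this length. Among the 7 genes, the AP-1 site was in 1 window, that of Tbxas1, at positions −61 to −55 from the start site, and the core was in 1 window, that of Ptgs2, on the minus strand at positions 13 to 18. The Alox5 window held neither. A match is a description of letters, not of binding. The windows of Alox5 (chr6:116461129-116461428, minus strand), Ptgs2 (chr1:150099781-150100080, plus strand) and Tbxas1 (chr6:38918736-38919035, plus strand) are shown because they stand for the gene with the largest line difference of the 7, the inducible cyclooxygenase and a gene whose level differed little. Capitals mark a motif match.
Alox5: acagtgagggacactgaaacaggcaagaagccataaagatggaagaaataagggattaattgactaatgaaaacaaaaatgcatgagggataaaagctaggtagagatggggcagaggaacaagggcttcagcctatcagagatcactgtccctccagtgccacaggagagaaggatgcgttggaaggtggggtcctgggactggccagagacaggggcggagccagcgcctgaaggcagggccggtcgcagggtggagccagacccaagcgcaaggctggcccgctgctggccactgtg
Ptgs2: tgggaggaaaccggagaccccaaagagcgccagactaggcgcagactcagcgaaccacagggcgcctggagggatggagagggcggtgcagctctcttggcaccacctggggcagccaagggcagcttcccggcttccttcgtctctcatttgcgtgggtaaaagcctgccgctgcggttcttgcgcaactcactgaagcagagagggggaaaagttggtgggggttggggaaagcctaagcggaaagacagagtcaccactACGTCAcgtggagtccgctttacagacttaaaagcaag
Tbxas1: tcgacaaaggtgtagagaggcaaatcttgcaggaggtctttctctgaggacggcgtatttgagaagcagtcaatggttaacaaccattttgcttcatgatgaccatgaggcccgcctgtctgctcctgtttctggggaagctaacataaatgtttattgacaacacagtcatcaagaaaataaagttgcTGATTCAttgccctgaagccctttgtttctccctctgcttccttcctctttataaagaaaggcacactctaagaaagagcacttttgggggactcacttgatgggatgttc

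Facts of the whole series bear on how these genes can be read. Between 47.7% and 57.6% of spots were well above background per array. Fosl1, targeted in the Fra-1 line, was not well above background on either Fra-1 knockout array and was on both Fra-1 control arrays, at least 3.91-fold lower in the knockout, with an adjusted p of 0.358 by limma. Fosl2 had 6.43 and 7.14 on the arrays labelled Fra-2 knockout, against 5.51 and 5.57 on the Fra-2 control arrays, by its brighter probe (log2 difference 1.24, adjusted p = 0.210), while its dimmer probe differed by −1.27. The dimmer probe went with the label, at −3.96 and −3.82 against −2.59 and −2.64, but was well above background on only 1 array labelled knockout. Whether either Fosl2 probe lies in the deleted part is not given in the sources used here. The brighter probe thus goes against the label or checks nothing. As the probes differ in sign, directions in the Fra-2 knockout comparison rest on the label alone. The macrophage markers Adgre1, Csf1r, Cd68, Itgam, Mertk, Fcgr1, Cd14 and Lyz2 were all well above background in all 4 groups. Their levels still differed by line. Adgre1, Csf1r, Mertk, Fcgr1, Cd14 and Lyz2 were lower on every Fra-1 array than on any Fra-2 array. Cd68 went the other way and Itgam overlapped. Cd14 had 3.82 to 4.05 in the Fra-1 line, against 7.76 to 8.26 in the Fra-2 line, and Cd68 had 8.73 to 9.18, against 6.49 to 7.21. The arrays lay on 2 slides, with Fra-1 knockout 1, both Fra-1 controls, Fra-2 knockout 1 and Fra-2 control 1 on slide 1.

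Arrays of the lines did not overlap for most of the 10 genes, as for 71.8% of all features in controls and 75.2% in knockouts. In controls, Alox15, Alox5, Ptgs2, Ptgs1 and Ptges were lower and Lta4h higher in the Fra-1 line, and in knockouts Alox15, Alox5, Ptgs2, Ptgis, Ptgs1 and Alox5ap were lower and Lta4h higher. The largest differences were those of Alox15, 265-fold lower in controls and 258-fold lower in knockouts, and of Alox5, 49.8-fold and 36.3-fold lower. Tbxas1 and Ltc4s were called in neither comparison. A gene was called at an adjusted p under 0.05 by limma, with Benjamini-Hochberg adjustment over all features tested.

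In controls 6 of the 10 genes were called, 1 higher and 5 lower in Fra-1, where 35.8% of all features tested were called, 18.1% higher and 17.8% lower. In knockouts 7 were called, 1 higher and 6 lower, where 41% of all features were called, 22.3% higher and 18.8% lower. These comparisons share no array. The sign was the same in both for 9 of the 10 genes, 5 genes were called in both, 3 in 1 and 2 in neither. Shares of all features with the same sign or called in both were not computed, so these counts support nothing about the list. The median difference of the 10 genes was −1.30 in controls and −1.44 in knockouts, beside −0.03 and 0.02 over all features. Arrays of the lines did not overlap for 8 of the 10 genes in controls, beside 71.8% of all features, and for 9 in knockouts, beside 75.2%. The share of called genes was thus above the background in both comparisons, and the share of non-overlapping genes was close to it. The list has only 10 genes and was chosen with earlier results known, so the first share supports nothing about it. All 10 genes were well above background on all arrays. With the filter on all 8 arrays, 7 were called in each comparison. Of the 17931 features kept there, 3537 were higher and 3668 lower in controls, and 4456 and 3687 in knockouts.

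**Figure D1:**
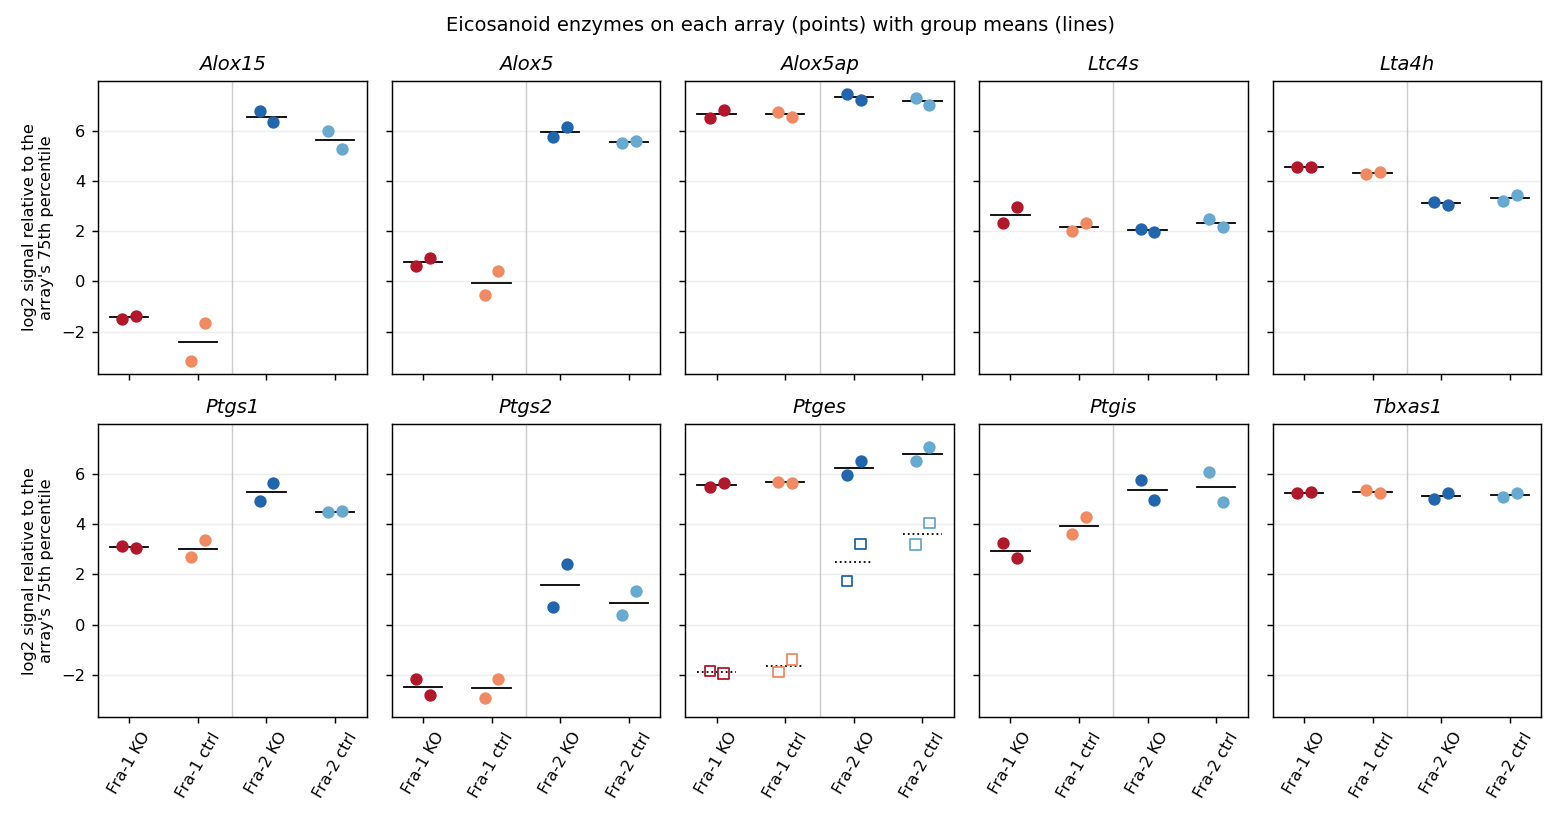
Log2 signal of each eicosanoid enzyme relative to the 75th percentile of the array, by group. Filled circles are arrays, lines are means of 2 arrays, and open squares with dotted lines are the dimmer Ptges probe. All 4 Fra-1 arrays of Alox15 lie between −3.16 and −1.38 and all 4 Fra-2 arrays between 5.28 and 6.81.

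Alox15 had −1.49 and −1.38 on the Fra-1 knockout arrays and −3.16 and −1.66 on the Fra-1 control arrays. In the Fra-2 line it had 6.81 and 6.35 on the arrays labelled knockout and 6.00 and 5.28 on the control arrays. Every Fra-1 array was thus far below every Fra-2 array. The difference of Fra-1 controls from Fra-2 controls was −8.05 ± 0.51 (SE, adjusted p = 0.000285, limma), and that of the knockouts was −8.01 ± 0.51 (adjusted p = 0.000246). It was −8.41 in controls and −8.30 in knockouts on slide 1 alone, and −7.73 in knockouts on slide 2.

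Alox5 had 0.63 and 0.93 in Fra-1 knockouts and −0.56 and 0.42 in Fra-1 controls. It had 5.78 and 6.15 on the arrays labelled Fra-2 knockout and 5.54 and 5.60 in Fra-2 controls. The lines again did not overlap, and within the Fra-1 line both knockout arrays were above both control arrays. The line difference was −5.64 ± 0.33 in controls (SE, adjusted p = 0.000238, limma) and −5.18 ± 0.33 in knockouts (adjusted p = 0.000251). On slide 1 alone it was −5.61 and −5.15, and on slide 2 it was −5.22 in knockouts. Alox15 and Alox5 were called in both comparisons under 21 of 21 alternative settings.

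For Alox5ap, the membrane protein that presents arachidonic acid to Alox5, the line difference was much smaller than the one for Alox5. It had 6.50 and 6.84 in Fra-1 knockouts, 6.76 and 6.56 in Fra-1 controls, 7.46 and 7.24 on arrays labelled Fra-2 knockout, and 7.33 and 7.04 in Fra-2 controls. Every Fra-1 array was below every Fra-2 array. The difference was −0.52 in controls (95% interval −0.98 to −0.07, adjusted p = 0.0730, limma) and −0.68 in knockouts (−1.14 to −0.23, adjusted p = 0.0304). The call in knockouts was lost on slide 1 alone, where the difference was −0.96, and at an unchanged −0.68 with no filter on dim probes or with only the compared groups in the fit. It was also lost without Fra-1 knockout 1 (−0.51), Fra-2 knockout 1 (−0.57) or Fra-2 knockout 2 (−0.79).

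The enzymes that divide leukotriene A4 did not follow Alox5. Lta4h, the hydrolase that makes leukotriene B4, was the 1 gene of the list called higher in the Fra-1 line. It had 4.57 and 4.58 in Fra-1 knockouts and 4.30 and 4.36 in Fra-1 controls. Arrays labelled Fra-2 knockout gave 3.17 and 3.05 and Fra-2 controls 3.21 and 3.46. The lines did not overlap, and the SD of a pair was at most 0.17 in any group. The line difference was 0.99 ± 0.13 in controls (SE, adjusted p = 0.00272, limma), or 1.99-fold, and 1.47 ± 0.13 in knockouts (adjusted p = 0.000689), or 2.76-fold.

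Ltc4s, which joins leukotriene A4 to glutathione, had 2.31 and 2.98 in Fra-1 knockouts and 2.02 and 2.34 in Fra-1 controls. It had 2.11 and 1.99 on arrays labelled Fra-2 knockout and 2.50 and 2.18 in Fra-2 controls. The control arrays of the lines overlapped, and the Fra-1 knockout arrays lay above those labelled Fra-2 knockout. The difference was −0.16 in controls (95% interval −0.79 to 0.47, adjusted p = 0.663, limma) and 0.60 in knockouts (−0.03 to 1.23, adjusted p = 0.114). This was the 1 gene of the 10 whose sign differed between the comparisons.

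Both cyclooxygenases were lower in the Fra-1 line. Ptgs2, the inducible form, had −2.17 and −2.82 in Fra-1 knockouts and −2.91 and −2.16 in Fra-1 controls, against 0.69 and 2.44 on arrays labelled Fra-2 knockout and 0.38 and 1.33 in Fra-2 controls. The lines did not overlap, although the pair labelled Fra-2 knockout lay far apart. The difference was −3.39 ± 0.65 in controls (SE, adjusted p = 0.0102, limma), or 10.5-fold, and −4.06 ± 0.65 in knockouts (adjusted p = 0.00489), or 16.7-fold. Within slides it was −2.91 in controls and −2.87 in knockouts on slide 1 and −5.25 in knockouts on slide 2. Without Fra-1 control 1 or without Fra-2 control 2, the difference in controls was −3.01 or −2.91 and was not called, while that in knockouts was called under 21 of 21 alternatives.

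Ptgs1, the form that most tissues express at rest, had 3.13 and 3.06 in Fra-1 knockouts and 2.70 and 3.37 in Fra-1 controls. It had 4.93 and 5.64 on arrays labelled Fra-2 knockout and 4.48 and 4.53 in Fra-2 controls. All Fra-1 arrays lay below all Fra-2 arrays. The difference was −1.47 ± 0.30 in controls (SE, adjusted p = 0.0126, limma), or 2.78-fold, and −2.19 ± 0.30 in knockouts (adjusted p = 0.00286), or 4.57-fold. On slide 1 alone it was −1.45 and −1.81 and was called in neither comparison. The control difference was also not called without Fra-1 control 1, Fra-2 control 1 or Fra-2 control 2, with values of −1.14, −1.50 and −1.45.

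**Figure D2:**
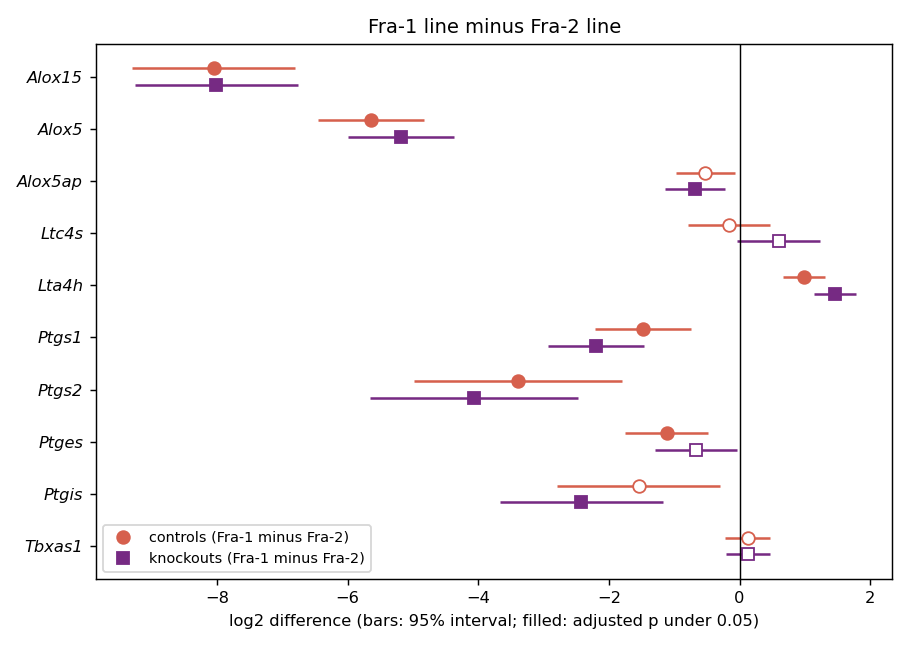
Log2 difference, Fra-1 minus Fra-2 line, for each eicosanoid enzyme, in controls (circles) and knockouts (squares), with 95% intervals; filled symbols had an adjusted p under 0.05. Alox15 lies near −8 and Alox5 between −5.64 and −5.18, while Tbxas1 lies at 0.13 in both.

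Among the enzymes that use prostaglandin H2, Ptges, the inducible prostaglandin E synthase, was lower in Fra-1 controls than in Fra-2 controls, and the size depended on the probe. Its brighter probe had 5.50 and 5.64 in Fra-1 knockouts and 5.71 and 5.66 in Fra-1 controls. That probe had 5.96 and 6.52 on arrays labelled Fra-2 knockout and 6.51 and 7.08 in Fra-2 controls. The lines did not overlap. The difference was −1.12 ± 0.26 in controls (SE, adjusted p = 0.0195, limma), or 2.17-fold, and −0.67 ± 0.26 in knockouts (adjusted p = 0.0840), which was not called. It was called in knockouts with slide as a term (adjusted p = 0.0241), after quantile normalization (0.0372), with a trended prior (0.0493) and without Fra-2 knockout 1 (0.0466), at values of −0.67, −0.73, −0.67 and −0.95. The control difference was not called on slide 1 alone (−0.83) or without Fra-2 control 2 (−0.83), Fra-1 control 1 (−1.14) or Fra-1 control 2 (−1.09).

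The dimmer Ptges probe had −1.86 and −1.94 in Fra-1 knockouts and −1.89 and −1.40 in Fra-1 controls, against 1.74 and 3.22 on arrays labelled Fra-2 knockout and 3.19 and 4.06 in Fra-2 controls. Its difference was −5.27 ± 0.52 in controls (SE, adjusted p = 0.00113, limma) and −4.38 ± 0.52 in knockouts (adjusted p = 0.00185), called in both. Both probes thus gave the same direction, and their sizes differed. With the mean of the probes, Ptges was called in knockouts too, at −2.53.

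Ptgis, prostacyclin synthase, had 3.26 and 2.64 in Fra-1 knockouts and 3.60 and 4.31 in Fra-1 controls. It had 5.78 and 4.96 on arrays labelled Fra-2 knockout and 6.10 and 4.89 in Fra-2 controls. All Fra-1 arrays were below all Fra-2 arrays. The difference was −1.54 in controls (95% interval −2.80 to −0.29, adjusted p = 0.0609, limma), which was not called, and it was −2.42 in knockouts (−3.67 to −1.17, adjusted p = 0.0130), or 5.35-fold. In controls it was called under 6 of 21 alternatives, among them slide as a term (−1.98, adjusted p = 0.00988) and slide 1 alone (−2.15, adjusted p = 0.0251). In knockouts it was not called without Fra-2 knockout 1 (−2.01) or Fra-1 knockout 2 (−2.11).

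Tbxas1, thromboxane A synthase, had 5.25 and 5.28 in Fra-1 knockouts, 5.36 and 5.24 in Fra-1 controls, 5.01 and 5.26 on arrays labelled Fra-2 knockout, and 5.08 and 5.27 in Fra-2 controls. The 4 group means lay within 0.17 of each other, the narrowest span of the 10 genes. The line difference was 0.13 in controls (95% interval −0.22 to 0.47, adjusted p = 0.517, limma) and 0.13 in knockouts (−0.21 to 0.47, adjusted p = 0.495). The intervals end at 0.47 on the higher side in both comparisons.

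Markers of several other cell types also moved with the line. Summed linear signal of 8 mast cell markers, relative to the 75th percentile, was 1.54 to 1.70 in Fra-1 knockouts and 2.37 to 2.89 in Fra-1 controls, against 61.7 to 122 on arrays labelled Fra-2 knockout and 48.3 to 143 in Fra-2 controls. Of these, Ms4a2 was not well above background on any array and Fcer1a on neither Fra-1 knockout array. Summed B cell markers (5 of 6 on the array) ran from 2.18 to 5.23 and from 1.39 to 3.30 in Fra-1 knockouts and controls, against 50.1 to 71.8 and 38.0 to 80.2 in the groups of the Fra-2 line, and the B cell factor Pax5 was well above background on 1 array. The platelet genes Ppbp and Itga2b were well above background on all Fra-2 arrays and no Fra-1 array. The platelet glycoproteins Gp9 and Gp5 were not well above background on any array. Gp1bb overlapped, at −4.37 to −3.66 in the Fra-1 line, against −4.30 to −4.04 in the Fra-2 line. Summed T cell markers (6 on the array) were 5.66 to 6.76 in the Fra-1 line, against 9.49 to 11.3 in the Fra-2 line, while Cd4 went the other way. For the 10 markers of large resident peritoneal macrophages the mean log2 level was −0.81 to −0.49 in the Fra-1 line, against 2.31 to 3.40 in the Fra-2 line, with Timd4 not well above background in the Fra-1 line. The sum of these markers overlapped between the lines, at 144 to 178 in the Fra-1 line, against 153 to 354 in the Fra-2 line, and 2 of them went the other way. Cd93 had 7.02 to 7.36 in the Fra-1 line, against 4.24 to 5.41 in the Fra-2 line, and Lgi2 was well above background in Fra-1 controls only. For small peritoneal and monocyte-derived macrophages 7 markers were on the array. Their sums overlapped, at 50.2 to 109 in the Fra-1 line, against 81.9 to 163 in the Fra-2 line. Their mean log2 level was 0.52 to 1.07, against 1.21 to 2.42. Cd226, Irf4, Cd209a and Cd74 were lower and Clec10a higher on every Fra-1 array than on any Fra-2 array. Ccr2 and Retnla overlapped. Fibroblast markers ran the other way, summing to 102 to 155 in Fra-1 knockouts and 267 to 371 in Fra-1 controls, against 7.63 to 8.33 on arrays labelled Fra-2 knockout and 4.26 to 8.51 in Fra-2 controls, with Dpt not well above background on any array and Pdgfra on no Fra-2 array. The 7 mesothelial markers on the array summed to 5.40 to 8.01 in Fra-1 knockouts and 11.0 to 16.2 in Fra-1 controls, against 1.43 to 2.01 and 1.28 to 1.39 in the groups of the Fra-2 line, where Upk3b, Lrrn4 and Bnc1 were not well above background. The 6 eosinophil markers summed to 7.53 to 7.87 in Fra-1 knockouts and 6.95 to 7.17 in Fra-1 controls, against 1.97 to 2.93 and 2.31 to 5.68 in the groups of the Fra-2 line, and of these Epx was not well above background on any array. Their mean log2 level overlapped, at −2.66 to −1.90 in the Fra-1 line, against −3.12 to −1.55 in the Fra-2 line, and Siglecf was higher and Il5ra lower on every Fra-1 array than on any Fra-2 array. Sums of 7 neutrophil markers overlapped, at 26.2 to 38.6 in the Fra-1 line, against 17.1 to 51.6 in the Fra-2 line. Of these, Elane and Ltf were higher and Mpo and Camp lower on every Fra-1 array than on any Fra-2 array. S100a8, S100a9 and Cxcr2 overlapped. The part of these cells in the levels of the 10 genes was not tested. In such bulk samples fewer cells of a type and less RNA per cell cannot be told apart.

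Between the arrays labelled knockout and control within a line, no call was made among the 10 genes. In the Fra-1 knockout 0 of 10 were called by limma, where 0.013% of all features were, and 1 gene had an unadjusted p under 0.05, beside 8.83% of all features. In the Fra-2 knockout 0 of 10 were called, where 0% of all features were, and again 1 had an unadjusted p under 0.05, beside 8.81%. The test of the Fra-1 effect against the Fra-2 effect called 0 of 10, where 0.00433% of all features were called, with 1 at an unadjusted p under 0.05, beside 9.55%. The 0 counts held under 21 alternatives for each knockout and 20 for the difference of effects. Arrays did not overlap for 5 of the 10 genes in each knockout, beside 46.3% of all features in the Fra-1 and 35.1% in the Fra-2 comparison.

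In the Fra-1 comparison, the gene with an unadjusted p under 0.05 was Alox5, with a mean of 0.78 ± 0.22 in knockouts and −0.07 ± 0.69 in controls (SD, n = 2 each), a difference of 0.85 (95% interval 0.04 to 1.67, adjusted p = 0.547, limma). Leaving out Fra-1 control 1 gave 0.36, and leaving out Fra-1 control 2 gave 1.34. Alox15 differed by 0.98 in the same comparison (−0.27 to 2.23, adjusted p = 0.644), and by 0.22 without Fra-1 control 1, the array with −3.16. Ptgis differed by −1.003 (−2.26 to 0.25, adjusted p = 0.640), and the fibroblast and mesothelial sums given above were also lower on both Fra-1 knockout arrays than on both Fra-1 control arrays. Their part was not tested. Ltc4s differed by 0.46 (−0.17 to 1.09) and Lta4h by 0.25 (−0.07 to 0.57). The remaining 5 genes, Alox5ap, Ptgs1, Ptgs2, Ptges and Tbxas1, differed by −0.11 to 0.06, with the widest interval that of Ptgs2, from −1.55 to 1.63.

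On the arrays labelled Fra-2 knockout, the gene with an unadjusted p under 0.05 was Ptgs1, with 5.29 ± 0.50, against 4.51 ± 0.04 in Fra-2 controls (SD, n = 2 each), a difference of 0.78 (95% interval 0.04 to 1.51, adjusted p = 0.544, limma). Alox15 differed by 0.94 (−0.31 to 2.19, adjusted p = 0.691), with both arrays labelled knockout above both control arrays. Ptgs2 differed by 0.71 (−0.88 to 2.30) and Ptges by −0.56 (−1.19 to 0.07), while the dimmer Ptges probe differed by −1.14. Alox5 differed by 0.40, Alox5ap by 0.17, Ptgis by −0.13, Lta4h by −0.23, Ltc4s by −0.29 and Tbxas1 by −0.04. None of these passed the adjusted threshold, and the interval of Ptgis ran from −1.38 to 1.13. Summed neutrophil markers (7 on the array) were 35.2 to 51.6 on the arrays labelled Fra-2 knockout, against 17.1 to 22.7 in Fra-2 controls. Of these, S100a9 and Mpo were higher on both arrays labelled knockout than on both control arrays. They had 3.09 and 4.39 on Fra-2 knockout 1, and 0.23 and 0.86 on Fra-2 knockout 2. S100a8, Elane, Camp, Ltf and Cxcr2 overlapped between the groups. The part of neutrophils was not tested.

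**Figure D3:**
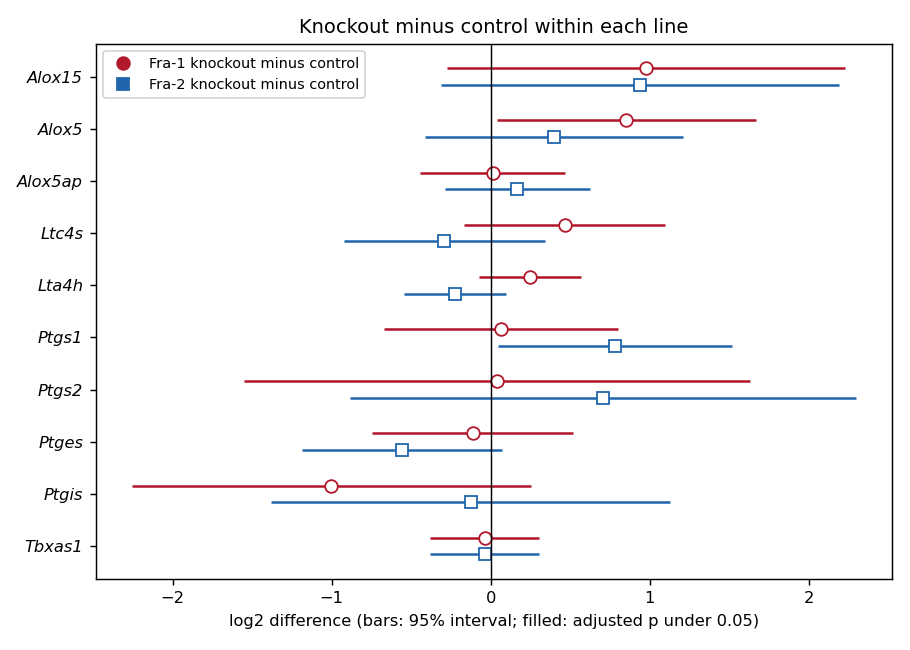
Log2 difference of knockout from control in the Fra-1 line (circles) and in the Fra-2 line as labelled (squares) for each eicosanoid enzyme, with 95% intervals; open symbols had an adjusted p of 0.05 or more. All 20 symbols are open, and the differences run from −1.003 to 0.98.

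The test of the Fra-1 effect against the Fra-2 effect gave its smallest p for Lta4h, which differed by 0.25 in Fra-1 and −0.23 in Fra-2 knockouts. The difference of these effects was 0.48 (95% interval 0.02 to 0.93, adjusted p = 0.508, limma). For Ltc4s it was 0.76 (−0.14 to 1.65, adjusted p = 0.575) and for Ptgs1 −0.72 (−1.76 to 0.32, adjusted p = 0.634). For Alox15 it was 0.04, with an interval from −1.73 to 1.81 that leaves sizes in either direction undetermined with 2 arrays a group.

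The 3 genes with the widest span of group means were Alox15 (8.99), Alox5 (6.03) and Ptgs2 (4.10). For each, the genes with the smallest root mean square difference over the 8 arrays, after centring on their own means, were sought among 13594 named genes. For Alox15 these were Nt5e (0.35), an ectonucleotidase, Selp (0.46), the P-selectin gene that is also among the large resident macrophage markers, and Apoc1 (0.56), an apolipoprotein. For Alox5 they were Ccno (0.32), a cyclin, Syn2 (0.33), a synapsin, and Pgap4 (0.35), which acts on lipid anchors of proteins. For Ptgs2 they were Cish (0.32), a cytokine-induced inhibitor of signalling, Spint1 (0.35), a protease inhibitor, and Camp (0.40), an antimicrobial peptide. Camp is also among the neutrophil markers. Syn2 was not well above background on any Fra-1 array, Nt5e was on 1 and Ccno on 2 of 4, so their distances are partly to background, while the other 6 were well above background on all arrays. These likenesses rest on the difference between the lines, which all 8 arrays share.

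Other genes of the eicosanoid pathway were followed as 6 lists of 64 genes, all on the array, of which 50 passed the filter on dim probes. In controls 10 were higher and 15 lower in the Fra-1 line, and in knockouts 13 higher and 15 lower. Over all features 18.1% were higher and 17.8% lower in controls and 22.3% higher and 18.8% lower in knockouts, which is the background for each list below. A gene dim in one line passed the filter only through the other, so these counts support nothing about the lists.

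Within the lines limma called 0 of the 50 pathway genes. An unadjusted p under 0.05 was found for 8 in the Fra-1 comparison, 5 in the Fra-2 comparison and 6 for the difference of effects, beside 8.83%, 8.81% and 9.55% of all features. In the Fra-1 comparison, the genes with the smallest p of their lists were Ggt5 (−1.29, adjusted p = 0.345, limma, not well above background on any Fra-1 array), Ltb4r1 (0.89, 0.485), Prxl2b (0.48, 0.517), Ptgir (0.57, 0.551), Lpcat3 (0.32, 0.563) and Alox12b (0.58, 0.658). In the Fra-2 comparison they were Aloxe3 (1.37, adjusted p = 0.244, limma), Prxl2b (−0.58, 0.393), Cysltr2 (−1.11, 0.507), Ggt5 (0.85, 0.520), Pla2g12a (0.24, 0.748) and Ptger4 (−0.18, 0.837). For the difference of effects they were Ggt5 (−2.14, adjusted p = 0.255, limma), Aloxe3 (−1.81, 0.286), Prxl2b (1.06, 0.296), Ltb4r1 (0.93, 0.565), Lpcat3 (0.37, 0.584) and Ptgir (0.63, 0.584).

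Of the 19 genes of phospholipases and substrate release 14 were tested. In Fra-1 controls 4 were higher and 5 lower, and in Fra-1 knockouts 4 were higher and 4 lower. Lpcat2, which makes platelet-activating factor, differed by −4.57 in controls (adjusted p = 0.000194, limma) and −4.54 in knockouts (adjusted p = 0.000169). Pla2g7, which breaks that lipid down, differed by −1.86 and −2.20. The secreted phospholipase Pla2g2e was at least 44.7-fold higher in Fra-1 controls and at least 42.3-fold higher in Fra-1 knockouts, since it was not well above background on any Fra-2 array. Mgll, the monoacylglycerol lipase that can free arachidonic acid from endocannabinoid, had 3.65 and 3.48 in Fra-1 knockouts and 3.61 and 3.85 in Fra-1 controls, and was well above background on only 1 of 2 arrays in each Fra-2 group. Its fitted differences were 7.83 in controls and 7.67 in knockouts. Pla2g4a, the cytosolic phospholipase that supplies arachidonic acid, is outside the naming rule and was added after its values were seen: it differed by −2.07 in controls (adjusted p = 0.00986) and −2.12 in knockouts (adjusted p = 0.00817).

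Of the 9 other prostaglandin synthases, all tested, 2 were higher and 2 lower in controls and 3 higher and 1 lower in knockouts. Hpgds, the haematopoietic prostaglandin D synthase, had 1.81 and 1.69 in Fra-1 knockouts and 1.98 and 1.86 in Fra-1 controls. On arrays labelled Fra-2 knockout it had −2.24 and −2.50, and in Fra-2 controls −2.59 and −3.08. It was thus higher in the Fra-1 line, by 4.76 in controls (adjusted p = 0.000130, limma) and 4.11 in knockouts (adjusted p = 0.000122), opposite in sign to both cyclooxygenases. Prxl2b differed by −1.83 in controls and −0.77 in knockouts, and Akr1b3 by 0.54 and 0.64. Akr1c18 was called in controls at −0.82 and Ptges2, another prostaglandin E synthase, in knockouts at 0.52. Of the 5 other lipoxygenases 3 were tested, and 0 were called in controls, where Alox12b had the smallest p (−0.55, adjusted p = 0.244). In knockouts Aloxe3 was lower in Fra-1 by 2.15 on the log2 scale and Alox12e at least 1.35-fold higher.

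Of the 15 genes of breakdown, conversion and export 14 were tested, and 3 were higher and 2 lower in controls and 3 higher and 4 lower in knockouts. Ptgr1, a reductase that inactivates leukotriene B4 and prostaglandins, differed by 2.15 in controls (adjusted p = 0.00164, limma) and 2.87 in knockouts (adjusted p = 0.000601). Mgst3, a microsomal glutathione transferase, differed by 1.17 and 1.70. Ggt5, which trims leukotriene C4 to leukotriene D4, was at least 4.08-fold lower in Fra-1 controls and at least 6.20-fold lower in Fra-1 knockouts. Abcc1, an exporter of leukotriene C4, was called in controls at −1.39, and Slco2a1, a prostaglandin transporter, in knockouts at −1.90.

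**Figure D4:**
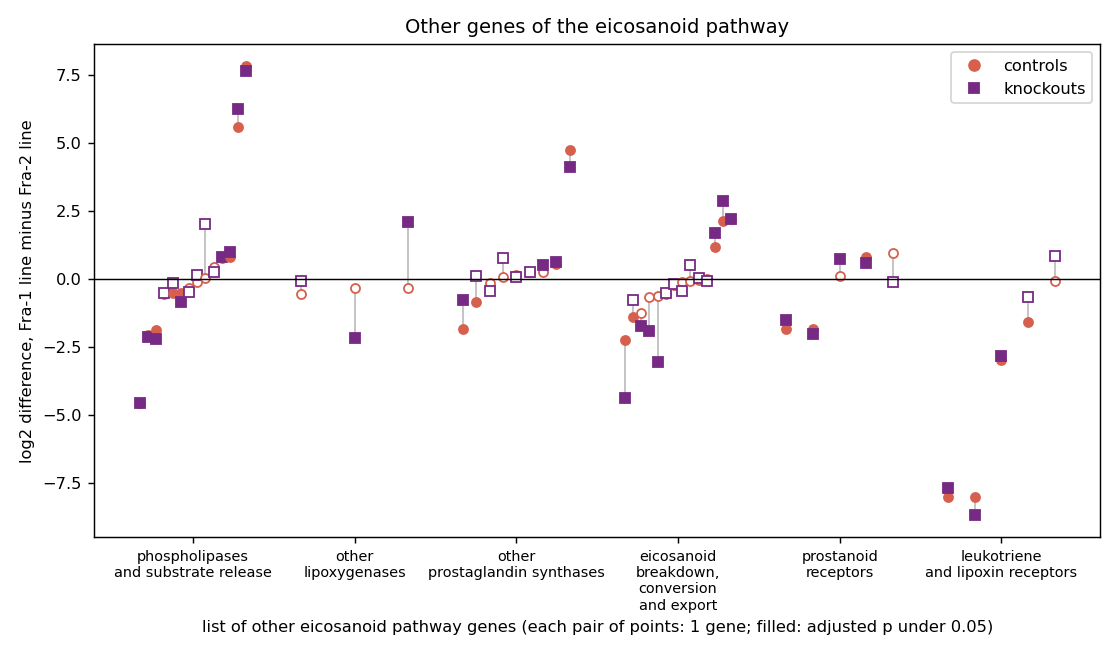
Log2 difference, Fra-1 minus Fra-2 line, for the 50 other pathway genes that passed the filter, by list, in controls (circles) and knockouts (squares); each joined pair is 1 gene and filled symbols had an adjusted p under 0.05. Differences for genes dim in one line are fitted values that include background. Fpr1 and Fpr2 lie between −8.68 and −7.69, and Mgll, at 7.83 and 7.67, is the gene at the top.

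Of the 7 genes listed as leukotriene and lipoxin receptors 5 were tested. The list and its counts include Fpr1, a receptor for formylated peptides. In Fra-1 controls 0 were higher and 4 lower, and in Fra-1 knockouts 0 were higher and 3 lower. Fpr1 had −1.83 and −0.86 in Fra-1 knockouts and −2.07 and −1.62 in Fra-1 controls, against 6.04 and 6.65 on arrays labelled Fra-2 knockout and 5.84 and 6.51 in Fra-2 controls. It differed by −8.02 in controls (adjusted p = 0.000176, limma) and −7.69 in knockouts (adjusted p = 0.000169), and Fpr2, a related receptor that also binds lipoxin, by −8.01 and −8.68. Cysltr1, a receptor for leukotrienes C4 and D4, differed by −2.99 in controls (adjusted p = 0.000194) and −2.83 in knockouts (adjusted p = 0.000193). Ltb4r1, the high-affinity leukotriene B4 receptor, was called in controls at −1.58 and not in knockouts at −0.66.

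Of the 9 prostanoid receptors 5 were tested, and 1 was higher and 2 lower in controls and 2 higher and 2 lower in knockouts. Ptger4 and Ptger2 are both prostaglandin E2 receptors coupled to cyclic AMP, and they went opposite ways. Ptger4 differed by −1.83 in controls (adjusted p = 0.000467, limma) and −1.49 in knockouts (adjusted p = 0.000790), and Ptger2 by 0.80 (adjusted p = 0.0110) and 0.58 (adjusted p = 0.0289). Tbxa2r, the thromboxane receptor, differed by −1.81 in controls and was at least 3.10-fold lower in Fra-1 knockouts. Ptgir, the prostacyclin receptor, was called in knockouts at 0.74, with 3.24 and 3.90 in Fra-1 knockouts, against 2.86 and 2.81 on arrays labelled Fra-2 knockout. In controls it differed by 0.11 and was not called. In knockouts the prostacyclin synthase Ptgis was called lower in Fra-1.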

How the data were processed

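Per the file headers, the deposited arrays were read in 1 colour and extracted with Agilent Feature Extraction 11.5.1.1, protocol GE1_1105_Oct12, with mm9 as the build. Per the file headers, the processed signal is an intensity on a linear scale after background subtraction, and the outlier and background columns are flags of 0 or 1. The authors' deposited value table holds log2 values centred on each probe's median. For pairs of arrays neighbouring in sample order, its differences followed those of the scanner values, with correlations of at least 0.90 over probes. Missing differences were taken as 0 there, and other pairs were not compared. The deposited table served as an alternative.

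Control and outlier spots were removed and spots of a probe averaged. Log2 signal was set relative to the 75th percentile of the array's noncontrol probes, a signal of 315 to 470. Probes were kept where at least 1 group had them well above background on both of its arrays. The probe with the highest mean level stood for its gene, and unnamed probes were joined by accession, giving 23118 features, 62.7% of them named through RefSeq. Limma 3.58.1 in R 4.3.3 fitted the 4 group means to all arrays, and p-values were adjusted within each comparison (Benjamini-Hochberg). No value of the 10 genes was missing. A fold is given as a bound where a gene was not well above background in the dimmer group: its floor per array was the higher of its own value and the lowest signal well above background.

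The members, the pathway and marker lists and the tests were chosen with earlier results of these data known. From each list and comparison up to 4 called genes with the smallest p were named, or 1 where none was called. Alternatives were other normalizations, background corrections, filters, probe summaries and priors, a slide term, slide 1 alone, a common floor, a minimum log2 change of 1, and leaving out each array. Normexp with an offset of 50 was run on median signals, a choice made after seeing the data, since no mean signal was used here. The fit was also tested on simulated data. Tables used Python 3.11.15, numpy 2.4.6 and pandas 2.3.3. The comparison of protein sequences was not run.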

Additional observations from a re-analysis of the deposited data

How the results depend on the processing

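A further fit took an absolute log2 change of at most 1 as the null hypothesis. With it, the count of eicosanoid enzymes called between lines was 2 in controls (Alox15 and Alox5) and 4 in knockouts. Leaving out each array in turn gave 3 to 6 in controls, with 3 without Fra-1 control 1, and 6 to 7 in knockouts. The other alternatives gave 5 to 8 in both. Counts in the knockout comparisons and for the difference of effects were 0 in every alternative; a fit of only the compared groups gives no difference of effects. Only uncalled differences changed sign. In the Fra-1 knockout comparison, Alox5ap was −0.017 after quantile normalization and −0.16 on slide 1 alone, Tbxas1 was 0.16 after normexp, and with slide as a term Ptgs2 was −0.30 and Ptgs1 −0.055. Leaving out each array there gave −0.16 to 0.18 for Alox5ap, −0.27 to 0.40 for Ptgs1, −0.34 to 0.41 for Ptgs2 and −0.095 to 0.022 for Tbxas1. In the Fra-2 knockout comparison it gave −0.16 to 1.58 for Ptgs2, −0.73 to 0.48 for Ptgis and −0.16 to 0.081 for Tbxas1, and between line controls −0.32 to 0.0031 for Ltc4s. The cause was not tested. No paired analysis was possible because the labels give no replicate numbers that groups share. Slides hold arrays of several groups, and slide as a term added calls for Ptgis in controls and Ptges in knockouts and ended none. The number of arrays limits the precision, and dim genes were read least surely on the array labelled Fra-2 knockout 1, whose lowest signal well above background was −3.58.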
